A study of Mus musculus with 27 samples.

Results

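A group of 25 genes was counted in every control library of the retinal ganglion cell axon region and was at or near 0 counts in every mutant library of that region, and its counts across all libraries are described here. A gene was chosen by its measured values in the axon libraries when it had 10 or more counts in each of the 4 controls and 3 or fewer in each of the 5 mutants. These limits found 25 of the 55487 genes in the table, or 0.46% of the 5440 genes with 10 or more counts in every axon control. The axon values therefore selected the genes and are given as a description with no test, whereas the dorsal and ventral libraries of the same embryos took no part in the choice.

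The libraries came from laser-captured pieces of the optic stalk (OS), the tube of neural tissue between eye cup and brain, at embryonic day (E) 14. The Smarcc1-DCT-cKO embryos carried Baf155 loxP/loxP, Dct-Cre and the Z/EG reporter, whereas controls were littermates without Dct-Cre, all on a C57Bl6/J background. Baf155 is another name of Smarcc1, whose product is part of the core of SWI/SNF, a complex that moves nucleosomes. A dorsal, a ventral and an axon piece from each of 4 control and 5 mutant embryos gave 27 libraries. Batch A held 1 control and 3 mutant embryos and batch B held 3 controls and 2 mutants. Dct-Cre is driven by the promoter of a pigment cell gene and is active in the pigmented epithelium and in OS cells, so the axons themselves, which grow in from the retina, are not the cells the driver is known for, and a piece may mix cells with and without recombination. In such bulk pieces, fewer cells of a type and less RNA per cell cannot be told apart.

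The axon region of the OS holds the axons of retinal ganglion cells together with the glial progenitors around them. Most RNA of a neuron lies in its cell body, and axons carry a smaller, selected set of transcripts. No shared pathway was part of the choice, and the genes are grouped by the known role of their products for description only.

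Total counts ran from 10.9 to 33.98 M per library (M, 1000000 counts), with 16.8 to 21.8 M in axon controls and 14.7 to 23.5 M in axon mutants. Genes with at least 1 count numbered 10076 to 14118 in axon controls and 9225 to 11358 in axon mutants. Smarcc1 itself had 919 to 4057 counts in axon controls and 42 to 770 in axon mutants, which did not overlap. Low counts were common in some libraries of both genotypes. Among genes with 10 or more counts in the other 3 axon controls, 17.7% had 3 or fewer in control 1, 2.92% in control 2, 13.2% in control 3 and 3.08% in control 4. Among the 5440 genes with 10 or more counts in all 4 controls, the share at 3 or fewer ran from 7.43% in mutant 5 to 16.4% in mutant 1. Among genes with 10 or more counts in the other 4 axon mutants, the shares were 12.2%, 7.94%, 6.02%, 10.4% and 3.79% in mutants 1 to 5. Axon controls 1 and 3 had shares near the mutant shares over the 5440 genes. They lay above every mutant share taken against the other mutants, although the sets of genes differ. Leaving out these controls changed the length of the list most. Without axon control 1 the same limits found 94 genes and without control 3 they found 75, against 35 without control 2 and 44 without control 4. Leaving out a mutant gave 33 genes (mutant 1), 44 (mutant 2), 40 (mutant 3), 37 (mutant 4) or 53 (mutant 5). Each of these longer lists contained all 25 by construction, since leaving out a library only removes a condition.

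**Figure D1:**
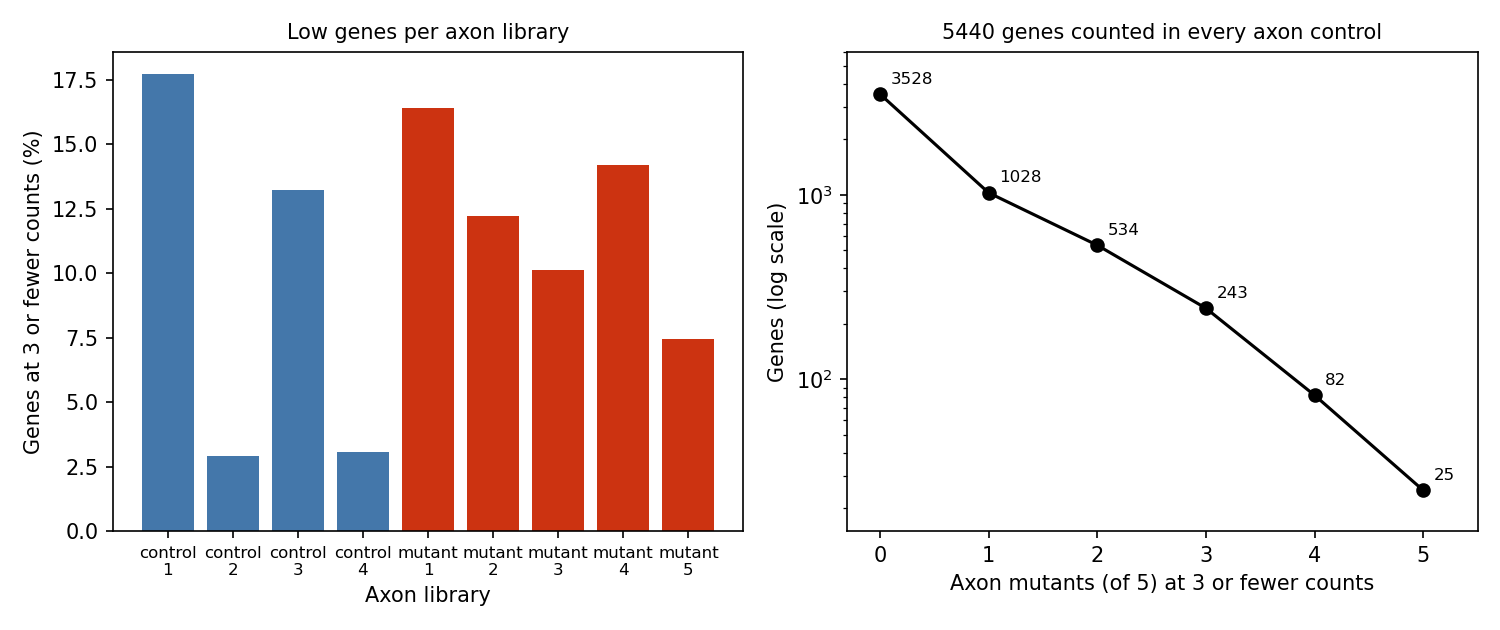
Left, bars give the percent of genes at 3 or fewer counts in each axon library, for controls (blue) among genes with 10 or more counts in the other 3 controls and for mutants (red) among the 5440 genes with 10 or more in all 4 controls; control 1 stands at 17.7% and control 2 at 2.92%. Right, points give, on a log scale, how many of the 5440 genes had 3 or fewer counts in 0 to 5 of the axon mutants, falling from 3528 genes in none to 25 in all 5.

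The 25 genes formed the end of a gradual series. Of the 5440 genes, 3528 were low in no axon mutant, 1028 in 1 mutant, 534 in 2, 243 in 3, 82 in 4 and 25 in all 5. With the genotypes exchanged, 1 gene (Arhgap31) of 3781 with 10 or more counts in every axon mutant was at 3 or fewer in all 4 controls, a share of 0.0264%. The same limits found 17 genes of 6550 in the dorsal libraries (0.26%) and 9 of 7277 in the ventral libraries (0.124%), and 0 of the 25 were among either. Counts per M (CPM) in axon controls averaged between 1.46 and 60.8 over the 25 genes. Of these, 11 lay between 10 and 20 CPM, where 374 of the 5440 genes lay, and 0 of the 1908 genes at 100 CPM or more were members.

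Promoter sequence is given for description, since the choice itself made the genes low together in the 5 axon mutants. Windows from 250 bases before to 50 bases after the annotated start were taken from RefSeq (GRCm38.p6, the build of mm10) and matched 23 of the 25 genes. Mettl15 was among those with no entry. Windows of 4 genes are shown because these are the genes that had 10 or more counts in all 10 dorsal and ventral mutant libraries. Capitals mark GC boxes (GGGCGG or its complement) in Gys1 (chr7:45434589-45434888, plus strand) and Rilpl2 (chr5:124478186-124478485, minus strand), an E-box (CACGTG) in Pdk2 (chr11:95041322-95041621, minus strand) and an ETS core (CCGGAAG) in Ptcd2 (chr13:99344629-99344928, minus strand), each written along the gene's strand.
Gys1: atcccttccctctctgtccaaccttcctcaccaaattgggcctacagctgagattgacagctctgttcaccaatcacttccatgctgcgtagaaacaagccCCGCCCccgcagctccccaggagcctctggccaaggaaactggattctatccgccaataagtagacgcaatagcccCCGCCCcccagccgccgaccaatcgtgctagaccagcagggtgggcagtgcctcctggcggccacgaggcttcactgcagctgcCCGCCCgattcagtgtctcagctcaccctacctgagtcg
Rilpl2: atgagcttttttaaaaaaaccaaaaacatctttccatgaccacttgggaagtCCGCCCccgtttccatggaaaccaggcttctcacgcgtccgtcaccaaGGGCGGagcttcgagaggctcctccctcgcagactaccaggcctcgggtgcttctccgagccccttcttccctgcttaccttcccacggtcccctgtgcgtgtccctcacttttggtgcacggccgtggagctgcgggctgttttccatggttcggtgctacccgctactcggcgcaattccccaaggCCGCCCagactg
Pdk2: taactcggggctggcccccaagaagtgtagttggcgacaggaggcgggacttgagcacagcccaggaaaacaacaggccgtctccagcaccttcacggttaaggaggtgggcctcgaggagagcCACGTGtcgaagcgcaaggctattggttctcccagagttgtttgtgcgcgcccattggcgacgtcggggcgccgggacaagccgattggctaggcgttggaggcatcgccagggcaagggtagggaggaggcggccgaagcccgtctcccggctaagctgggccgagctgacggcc
Ptcd2: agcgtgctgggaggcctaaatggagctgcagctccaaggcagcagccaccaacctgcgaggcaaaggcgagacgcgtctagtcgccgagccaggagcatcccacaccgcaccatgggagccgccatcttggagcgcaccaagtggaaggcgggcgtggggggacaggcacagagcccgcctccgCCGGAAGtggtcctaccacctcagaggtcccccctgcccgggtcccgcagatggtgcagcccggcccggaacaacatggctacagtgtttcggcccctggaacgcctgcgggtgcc
A GC box stood in 15 of the 23 windows (65.2%), beside 35.7% of all 32851 windows and 68.1% of the 4088 windows of genes with 10 or more counts in every axon control. The sets were picked differently. A member had the window nearest its annotated start, and genes high in axon controls, members included, had the first listed. The full set could hold several windows of a gene. The ETS core was in 4 windows (17.4%), the E-box in 2 (8.7%) and the core of the NRF1 motif in 2 (8.7%). Over all windows these shares were 8.86%, 7.15% and 4.6%, and over the genes high in axon controls 21.3%, 11.2% and 13.1%. A TATA box (TATAAA) was in 0 of the 23 windows, in 13.6% of all windows and in 6.65% of those of genes high in axon controls. Both strands were searched, and the letters of one motif did not overlap those of another in the windows shown. The ratio of observed to expected CpG was over 0.6 in 16 of 23 windows (69.6%), beside 82.4% for the genes high in axon controls. The shares of the GC box and high CpG ratio lay nearer to those of the genes counted in the axon controls. The other motifs were in 0 to 4 of the 23 windows, too few to place. Such matches are descriptions of letters and not binding sites.

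The genes lay on 13 chromosomes, with 5 on chromosome 7 and 4 on chromosome 2, and 24 were protein coding. Their exons covered 747 to 10291 bases with a median of 3388, beside a median of 4299 for the genes high in axon controls. In all, 12 shared exonic bases with a neighbour on the opposite strand. The strand setting of the counting is not given in the sources used here and the kit does not mark strand, so reads of overlapping partners cannot be told apart. The shared part exceeded 10% in 3110082J24Rik (31.7%, Garem2), Selenoo (26.7%, Tubgcp6), 1700008J07Rik (21.5%, Srcap), Nfatc2ip (13.4%, Gm45141) and Pradc1 (10.5%, Cct7).

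A pair of enzymes that set the use of glucose were among the genes. Pdk2 (pyruvate dehydrogenase kinase, which phosphorylates and switches off the pyruvate dehydrogenase complex) had 1444, 541, 1378 and 1115 counts in axon controls 1 to 4 and 0 in all 5 axon mutants. It had the highest mean level of the 25 genes, 60.8 ± 25.2 CPM (SD, n = 4). The mutant libraries allow up to 3 counts each, a mean floor of 0.162 CPM. The control mean of Pdk2 was 374-fold above that floor, and its lowest control stood at 29.5 CPM. Gys1 (the glycogen synthase of muscle and brain) had 59, 192, 103 and 790 counts in the axon controls and 0 in all mutants. Its control level was 14.02 ± 15.1 CPM (SD, n = 4), which rested mostly on control 4. Per kb of exon, the control mean was 19.2 CPM for Pdk2 and 2.93 CPM for Gys1.

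Lipid, zinc and glycan genes formed a further group. Pnpla2 (adipose triglyceride lipase, the first step in breaking down stored fat) had 26, 76, 221 and 490 counts in the axon controls. Slc39a13 (ZIP13, a zinc transporter of intracellular membranes) had 728, 314, 31 and 135. Mgat5 (the transferase that starts the beta-1,6 branch of N-glycans) had 26, 46, 19 and 16, the lowest level of the 25 genes at 1.46 ± 0.761 CPM (SD, n = 4). All 3 were at 0 in every axon mutant. The control mean of Mgat5 was 8.97-fold above the floor, and its lowest control stood at 0.733 CPM. Ust (uronyl 2-sulfotransferase, which modifies chondroitin and dermatan sulfate) had 66, 447, 598 and 402 counts, and 0 in the mutants.

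Mitochondrial proteins included Ptcd2 (a pentatricopeptide repeat protein of mitochondrial RNA processing), with 405, 1293, 1268 and 476 counts in axon controls and 0, 0, 0, 3 and 3 in mutants 1 to 5. Mettl15 (a methyltransferase of mitochondrial ribosomal RNA) had 1125, 263, 1141 and 285 counts in controls and 0 in the mutants. Selenoo (a mitochondrial selenoprotein with a kinase fold that attaches AMP to proteins) had 1004, 135, 27 and 225 in controls and 3 in mutant 4 only. Mettl15 and Selenoo were thus each highest in control 1 or 3 and varied more than 4-fold among controls. Spryd4 (a SPRY domain protein) had 1837, 538, 953 and 551 counts in controls and 1 in mutant 5. Pradc1 (a secreted protein with a protease-associated domain) had 937, 533, 706 and 869 in controls and 2 in mutant 3, the most even control values of the set, with a ratio of highest to lowest CPM of 1.79.

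Among genes of vesicle transport, cilium and centrosome, Rilpl2 (a binding partner of phosphorylated Rab GTPases that acts at the cilium) had 257, 357, 99 and 487 counts in axon controls. Cep72 (a centrosomal protein) had 20, 400, 770 and 1306, the widest spread among controls with a ratio of 53.8 in CPM. Spaca9 (a protein of ciliary microtubules) had 94, 267, 522 and 346. All 3 were at 0 in every axon mutant.

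Further members had varied functions. Mpped2 (a metallophosphoesterase), Hhipl1 (related to a hedgehog-binding protein), Bend5 (a BEN domain protein), Mkrn3 (a RING finger protein of an imprinted locus), Xk (a membrane protein of the Kell complex), Ccdc85a, Lysmd1, Nfatc2ip, 3110082J24Rik and the antisense transcript 1700008J07Rik had axon control counts from 21 (Lysmd1, control 4) to 1623 (Bend5, control 1). Of the 125 mutant axon values of the 25 genes, 117 were 0 and 8 were 1 to 3. In all, 18 genes were at 0 in all 5 mutants, and their control means were 8.97-fold to 374-fold above the floor, with a median of 102-fold. Among controls alone, the ratio of highest to lowest CPM was 5 or more for 17 of the 25 genes and had a median of 6.98, beside a median of 6.78 for 2455 other genes in the same range of mean axon control CPM. Just inside the limits were Mgat5 (lowest control at 16 counts) and Ptcd2 and Selenoo (a mutant at 3). Just outside were March2, with 589, 236, 838 and 111 counts in controls and 6 in mutant 5, and Taf4, with 782, 112, 466 and 10 in controls and 5 in mutant 1.

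**Figure D2:**
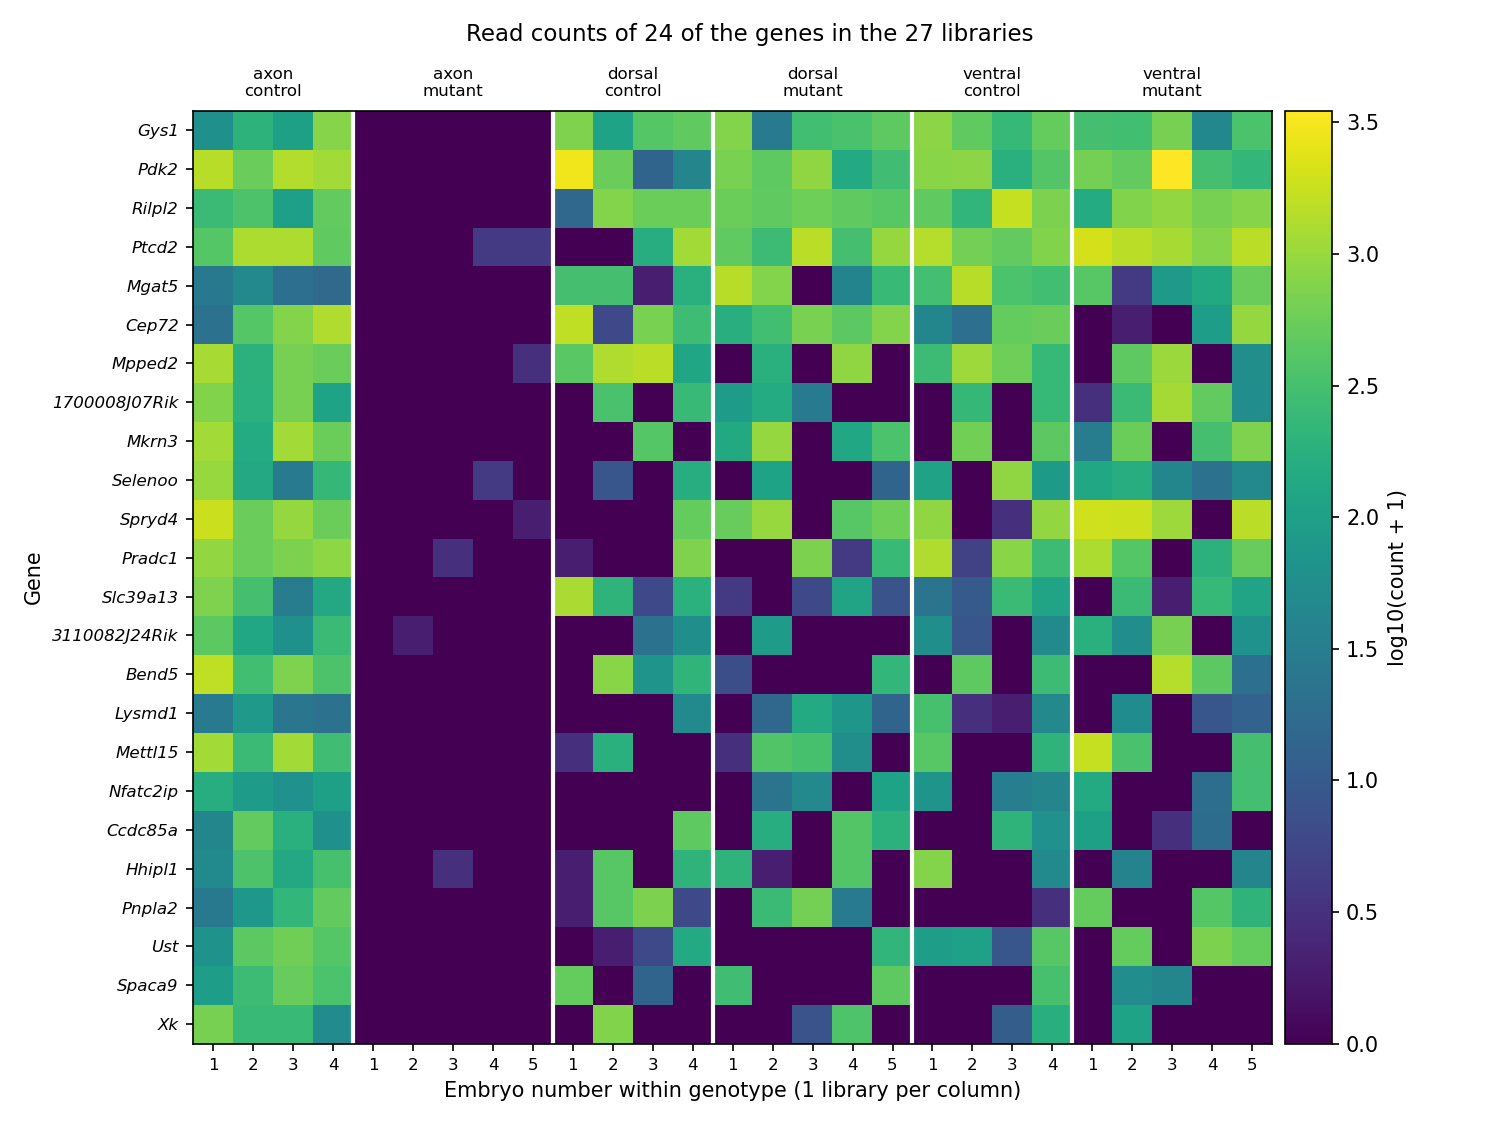
Colour gives log10(count + 1) of 24 of the 25 genes (rows, ordered by the number of dorsal and ventral libraries with 10 or more counts) in each of the 27 libraries (columns, by region, genotype and embryo number). The axon mutant block is dark by the choice of genes, while dark cells are scattered through the dorsal and ventral blocks of both genotypes, and Gys1, Pdk2 and Rilpl2 have 10 or more counts in all 18 of those libraries.

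In the dorsal and ventral pieces of the same mutant embryos each gene was present in at least some libraries. Each of the 25 had 10 or more counts in at least 2 of the 10 dorsal and ventral mutant libraries, and 18 had this in 5 or more. Of dorsal and ventral mutant values, 56.8% and 66.4% were at 10 or more. For 2455 other genes in the same range of mean axon control CPM these shares were 93.1% and 93.8%. In controls they were 50% and 65% for the members, beside 91.6% and 93.9%. Taken by embryo, 106 of 125 pairs of gene and mutant embryo (84.8%) had 10 or more counts in the dorsal or the ventral piece, a share not computed for other genes. In all, 13 genes reached this in all 5 mutant embryos, 7 in 4, 3 (Bend5, Slc39a13 and Ust) in 3 and 2 (Xk among them) in 2. All 10 mutant libraries held 10 or more counts of Gys1, Pdk2, Rilpl2 and Ptcd2, and all 8 control libraries held that of Gys1, Pdk2, Rilpl2 and Mpped2.

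The genes were often low there in controls as well. Values of 3 or fewer counts made up 45 of 100 in dorsal controls (45%), 50 of 125 in dorsal mutants (40%), 30 of 100 in ventral controls (30%) and 41 of 125 in ventral mutants (32.8%). For the 2455 other genes in the same range of mean axon control CPM the shares were 6.9%, 5.17%, 4.93% and 5.16%, a set chosen after these values were seen. That set shared the range of the members but not their levels within it. At 10 to 20 CPM lay 374 genes with 11 members, and at 50 to 100 CPM 1418 genes with 2 members. Low values made up 29.7% and 11.7% of axon mutant values there. The part of level in the comparisons with this set was not tested. The members thus had more low values than those genes in controls and mutants alike. In batch B, 38.7% of dorsal control and 34% of dorsal mutant values were low, and 30.7% of ventral control and 22% of ventral mutant values. In batch A the shares were 64% in its 1 dorsal control and 44% in its 3 dorsal mutants, and 28% and 40% in the ventral pieces. The same gene could be low in one library and high in another of its own group: for 22 of the 25 genes (88%), at least 1 of the 4 dorsal and ventral groups held a library with 3 or fewer counts and another with 100 or more, beside 41.4% of the 2455 other genes.

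**Figure D3:**
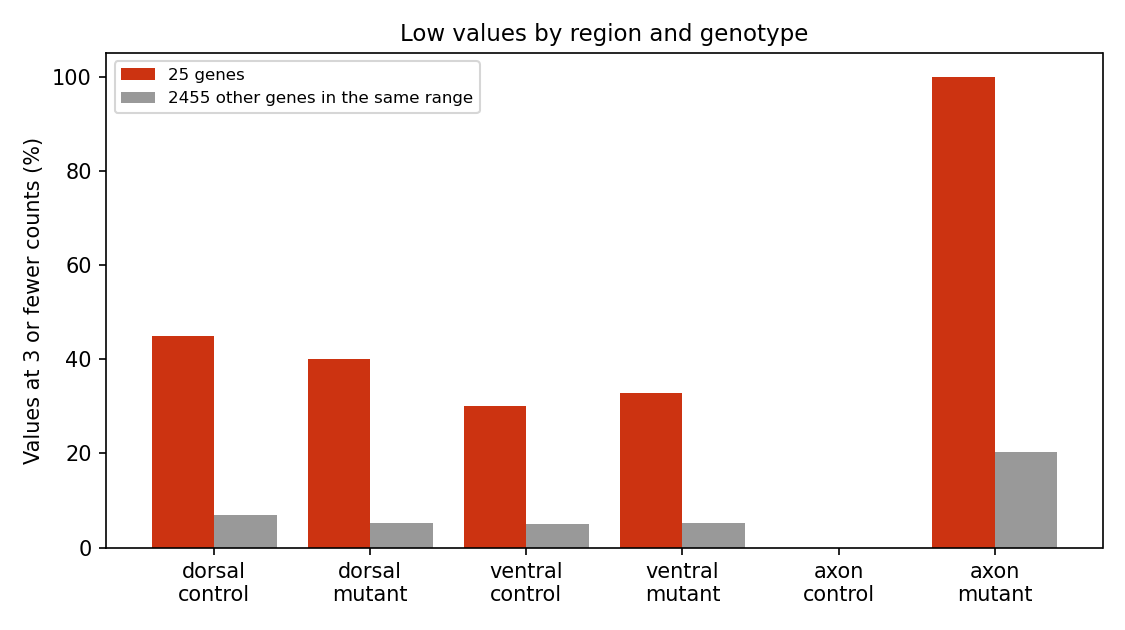
Bars give the percent of values at 3 or fewer counts, by region and genotype, for the 25 genes (red) and for 2455 other genes in the same range of mean axon control CPM (grey). In the axon groups the 25 genes are at 0% and 100% by their choice, whereas in the dorsal and ventral groups they lie between 30% and 45%, above the other genes at 4.93% to 6.9% in both genotypes.

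The dorsal and ventral libraries allow a test of genotype that the choice did not use. With edgeR's quasi-likelihood test, 0 of the 25 genes were called in the dorsal pieces at an adjusted p under 0.05 and a log2 fold change over 0.58 in size, where 2 of 16145 genes (0.0124%) were called. At an unadjusted p under 0.05 there was 1 of the 25 (Nfatc2ip, higher in mutants, adjusted p = 0.918), beside 5.35% of all genes. In the ventral pieces 0 of the 25 were called, as of all 16139 genes (0%), and 1 (Pnpla2, higher in mutants, adjusted p = 0.999) had an unadjusted p under 0.05, beside 3.19% of all genes. DESeq2 called 2 of the 25 in the dorsal pieces, both lower in mutants (1 of them 1700008J07Rik, adjusted p = 0.0242), where it called 3.3% of all genes, and 0 of the 25 in the ventral pieces, where it called 2.12%. The counts of 1700008J07Rik were 0, 336, 0 and 250 in dorsal controls and 91, 151, 28, 0 and 0 in dorsal mutants, which overlapped.

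None of the 25 genes had all mutant libraries below all controls (0 in the dorsal pieces, where 1.61% of all genes did, and 0 in the ventral pieces, where 0.706% did). A control at 0 counts leaves no room below it, and 17 of the 25 genes had one in the dorsal and 14 in the ventral pieces, so these counts say little of the members. None had all mutants above all controls either, beside 1.31% of all genes in the dorsal and 0.52% in the ventral pieces. The median fitted log2 fold change of mutant over control was 0.58 over the 25 genes in the dorsal pieces, beside -0.04 over all genes, with 9 of 25 below 0. In the ventral pieces it was -0.08 for both, with 13 of 25 below 0. The dorsal median rested on the 1 batch A control, since it was -0.03 in batch B alone and -0.0069 without dorsal control 1, and leaving out other libraries gave 0.15 to 1.41. The ventral median ran from -0.41 to 0.53 when single libraries were left out. Fitted values of genes with many libraries at 0 depend on the small count that the fit adds, so log2 fold changes are given for the 6 genes with 10 or more counts in at least 14 of the 18 libraries, and the others by their counts.

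Pdk2 had 2964, 537, 13 and 40 counts in dorsal controls and 684, 464, 916, 144 and 283 in dorsal mutants. In the ventral pieces it had 830, 855, 176 and 399 in controls and 625, 490, 3498, 312 and 219 in mutants. Each mutant embryo thus held Pdk2 in both pieces next to its axon library with 0, and the genotypes overlapped. Its log2 fold change was -0.33 ± 1.14 (SE) in the dorsal and -0.47 ± 1.02 in the ventral pieces, with edgeR adjusted p of 1 and 0.999. The dorsal level averaged 40.0 ± 57.5 CPM over the controls (SD, n = 4) and 36.8 ± 25.4 CPM over the mutants (SD, n = 5).

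Gys1 had 731, 113, 412 and 482 counts in dorsal controls and 781, 28, 294, 337 and 464 in dorsal mutants. Its ventral counts were 856, 476, 232 and 511 in controls and 315, 294, 665, 44 and 347 in mutants. Ventral mutants averaged 15.4 ± 7.26 CPM (SD, n = 5) and ventral controls 31.3 ± 13.0 (SD, n = 4), with overlapping libraries. The log2 fold changes were 0.23 ± 1.32 (SE) dorsally and -1.21 ± 1.19 ventrally, and neither passed the test (adjusted p = 1 and 0.999).

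Rilpl2 was the most even of the genes in dorsal mutants, with 564, 474, 573, 483 and 422 counts, against 15, 759, 567 and 550 in dorsal controls. Ventral counts were 470, 212, 1717 and 708 in controls and 150, 745, 943, 656 and 795 in mutants. Control 1 was thus the only dorsal library under 400 counts. The fold changes on the log2 scale were 1.04 ± 1.72 (SE) and -0.08 ± 0.93, and adjusted p was 1 and 0.999.

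For Ptcd2, dorsal controls had 0, 0, 162 and 1144 counts and dorsal mutants 472, 269, 1526, 311 and 954. Ventral controls had 1405, 625, 497 and 752 and ventral mutants 2085, 1524, 1200, 790 and 1484. All 10 mutant libraries held the transcript, whereas 2 dorsal controls had 0 counts. The log2 fold changes were 2.02 ± 2.65 (SE) in the dorsal and 0.52 ± 0.57 in the ventral pieces, with adjusted p of 1 and 0.999. The dorsal value ranged from 0.59 without control 1 to 5.98 without mutant 4. Ventral mutants averaged 74.7 ± 28.0 CPM (SD, n = 5) and ventral controls 48.6 ± 17.8 (SD, n = 4).

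Mgat5 had higher counts in most of the stalk pieces than in the axon controls, with 3 or fewer in 3 of the 18. Dorsal counts were 311, 318, 1 and 176 in controls and 1452, 766, 0, 39 and 249 in mutants, and ventral counts were 302, 1454, 349 and 291 in controls and 418, 3, 79, 139 and 549 in mutants. Cep72 had 1606, 5, 668 and 278 in dorsal controls and 167, 295, 681, 453 and 778 in dorsal mutants. In the ventral pieces Cep72 had 41, 19, 515 and 541 in controls and 0, 1, 0, 92 and 959 in mutants. Both genes overlapped between genotypes in each region. The log2 fold changes of Mgat5 were 0.69 ± 2.25 (SE) and -1.14 ± 1.44 and those of Cep72 were 0.09 ± 1.28 and -2.33 ± 2.32, all with adjusted p of 1 or 0.999.

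**Figure D4:**
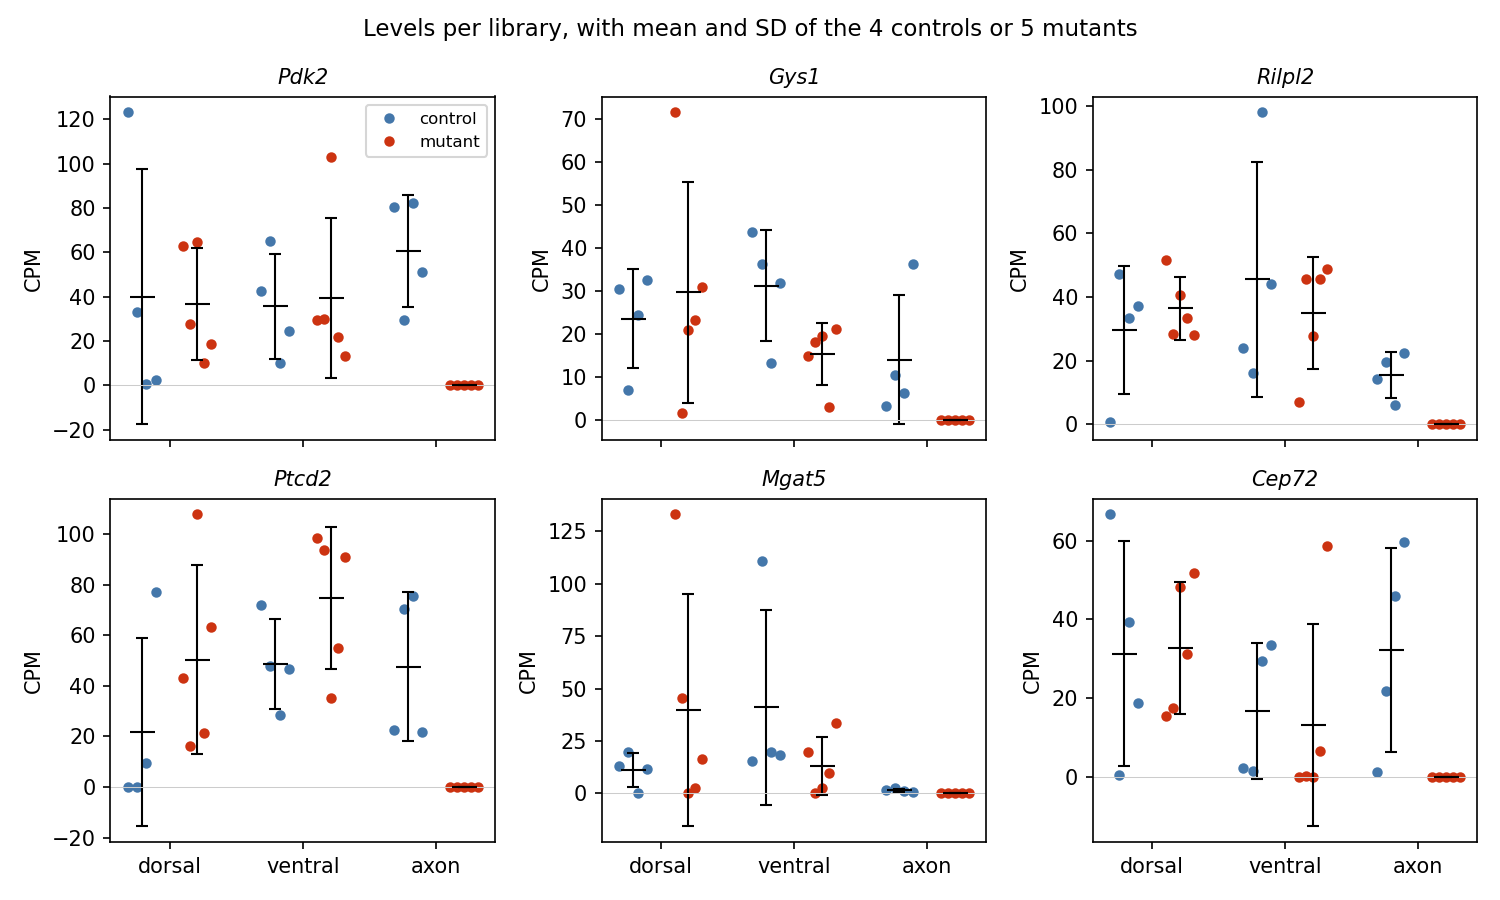
Points give CPM per library for Pdk2, Gys1, Rilpl2, Ptcd2, Mgat5 and Cep72 in controls (blue, n = 4) and mutants (red, n = 5) of the dorsal, ventral and axon pieces; bars give mean and SD. Axon mutants lie at or near 0 by the choice of genes, and in the dorsal and ventral pieces the points of the genotypes overlap in all 6 genes.

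The remaining named genes came and went between libraries. Slc39a13 had 1249, 200, 5 and 182 counts in dorsal controls against 3, 0, 5, 117 and 7 in dorsal mutants. In the ventral pieces Slc39a13 had 22, 9, 260 and 117 in controls and 0, 256, 1, 237 and 117 in mutants, so mutants 2, 4 and 5 held the transcript. Pnpla2 in the ventral pieces had 0, 0, 0 and 2 counts in controls and 508, 0, 0, 407 and 199 in mutants. Its dorsal counts were 1, 420, 700 and 5 in controls and 0, 259, 638, 27 and 0 in mutants. Spryd4 had 0, 0, 0 and 508 in dorsal controls and 521, 1002, 0, 423 and 581 in dorsal mutants. Mpped2 had 431, 1335, 1487 and 119 in dorsal controls and 0, 174, 0, 916 and 0 in dorsal mutants. Its ventral counts were 268, 1047, 580 and 239 in controls and 0, 461, 1017, 0 and 56 in mutants. Slc39a13, Pnpla2, Spryd4 and Mpped2 overlapped between genotypes in each piece.

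Spryd4 had 894, 0, 2 and 941 counts in ventral controls and 1913, 1898, 1045, 0 and 1519 in ventral mutants. Pradc1, so even in axon controls, had 1, 0, 0 and 729 in dorsal controls and 0, 0, 696, 3 and 255 in dorsal mutants. Its ventral counts were 1327, 4, 828 and 265 in controls and 1265, 407, 0, 189 and 530 in mutants. Even values in 4 axon controls thus went with at most 1 count in 3 of the 4 dorsal controls. Selenoo was sparse dorsally, with 0, 8, 0 and 162 in controls and 0, 112, 0, 0 and 13 in mutants. In all 5 ventral mutants it had counts (134, 160, 42, 20 and 45), beside 109, 0, 907 and 85 in ventral controls.

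The difference of the genotype effect between ventral and dorsal pieces was fitted over the 18 libraries. Of the 25 genes 0 were called by edgeR, where 0.0122% of all genes were, with 1 at an unadjusted p under 0.05.

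Other genes of the pathways behind the named members were low in the axon mutants about as often as genes at large. The 8 lists (pyruvate dehydrogenase control, glycogen metabolism, lipid droplet lipolysis, zinc transporters, N-glycan branching, mitochondrial RNA processing, selenoproteins, and RILP family and LRRK-RAB partners) held 154 genes besides the members, of which 55 had 10 or more counts in every axon control. Of the 55, 36 were at 3 or fewer counts in no axon mutant, beside 64.9% of the 5440 genes, and 1, the zinc transporter Slc30a6, had 3 or fewer in 4, as had 1.51% of the 5440 genes. Since any gene low in all 5 is a member, such genes could not appear in these counts. Of the pyruvate dehydrogenase list, Pdha1, Pdhb, Dlat, Pdhx, Mpc1 and Mpc2 (enzyme subunits and the mitochondrial pyruvate carrier) were counted in every axon control, and 5 of the 6 were low in no mutant. Among selenoproteins 11 of 15 were low in no mutant. Read against the 64.9% of all such genes, neither count sets its list apart.

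Relatives and partners of the members were counted in the same libraries. Pdk3, another pyruvate dehydrogenase kinase, had 0 to 686 counts in axon controls and 2 to 1874 in axon mutants, and Pdk1 had 0 to 120 and 0 to 815. Gyg (glycogenin, the primer of glycogen synthesis) had 1244 to 3907 and 118 to 3753. Abhd5, the activator of the Pnpla2 lipase, had 0 to 198 in controls and 0 to 2442 in mutants, and Rilpl1 had 0 to 960 and 0 to 106. All 5 ranges overlapped between genotypes. Gpx4, an abundant selenoprotein, had 3218 to 11031 in controls and 2901 to 12203 in mutants. The mitochondrial RNA genes Ptcd1 and Ptcd3 had 2 to 1383 and 24 to 546 counts in axon controls and 0 to 1075 and 2 to 1191 in axon mutants.

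In the dorsal and ventral fits, 0 genes of any of the 8 lists were called in either direction by edgeR. At an unadjusted p under 0.05 there were 3 of 19 selenoproteins and 1 of 15 RILP and LRRK-RAB genes in the dorsal pieces. In the ventral pieces there were 2 of 19 selenoproteins, 2 of 16 N-glycan branching genes and 1 of 18 glycogen genes. List medians ran from -1.19 (N-glycan branching) to 0.58 (lipid droplet lipolysis) on the log2 scale in the dorsal pieces, and from -0.60 (glycogen metabolism) to 0.35 (mitochondrial RNA processing) in the ventral pieces, beside -0.04 and -0.08 over all genes.

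Genes whose log2(CPM + 1) over the 27 libraries was most like the mean of the 25 were Gm49336 (Pearson r = 0.812), Ube2g2 (0.782), Alg13 (0.759), Heatr6 (0.752) and Slc35b4 (0.749). Each member was set against the mean of the other members, with a median r of 0.581. The named genes were picked as the highest of all genes tested, so their r cannot be ranked against that median. The 27 points share regions, depth and the 5 axon mutants that chose the members, so these values are descriptive. Slc35b4, a Golgi transporter of nucleotide sugars, had 1240 to 2682 counts in axon controls and 0 to 7 in axon mutants.

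Markers of the cell types that the axon piece could hold were compared as summed CPM. The 18 markers of retinal ganglion cell axons summed to 3937 to 6837 in axon controls and 5515 to 8325 in axon mutants, against 346 to 2290 in dorsal controls, although Nefh and Pou4f2 were at 0 in every axon library. The 17 astrocyte progenitor markers summed to 4139 to 8472 in axon controls and 3442 to 5024 in axon mutants, with Aldh1l1 at 0 in both. Markers of periocular mesenchyme summed to 399.7 to 2659 and 628.8 to 2331, those of melanin synthesis to 51.0 to 639.8 and 169.7 to 1569, and endothelial markers to 3.55 to 182 and 0.584 to 383. The 10 erythroid markers ran from 2650 to 9034 in controls and from 608.5 to 33120 in mutants. Microglial markers summed to 0 to 338.9 and 0 to 172, with Ptprc at 0 in both, and retinal progenitor markers to 431 to 1064 and 669.9 to 929. Every one of these ranges overlapped between genotypes. Single markers went both ways. At 0 in every axon mutant but not in every control were Csf1r, Cx3cr1, Fcer1g, Mrc1, Tyrobp, Cd44, Vax2, Elavl4, Tyr and Rax. The reverse held for Pou4f1, Prph, Gfap, Slc45a2, Tyrp1, Esam and Slc4a1. The mutant mean was lower for 9 of 11 microglial, 12 of 17 astrocyte progenitor, 10 of 18 axon and 7 of 12 mesenchyme markers. It was lower for 4 of 9 retinal progenitor, 3 of 11 melanin, 2 of 10 erythroid and 1 of 8 endothelial markers. The part of these cell types in the counts of the 25 genes was not tested. Mitochondrial genes took 8.64 to 15.4% of counts in axon controls and 7.49 to 12.2% in axon mutants.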

How the data were processed

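RNA was measured in 27 libraries of E14 OS tissue. Per the labels and the study's methods, pieces were captured by laser from 12 µm sections, and the cDNA went through PCR without unique molecular identifiers, so floors cover counting error only. The authors deposited raw read counts per gene, made with Seq2Science at default settings (STAR on mm10, HTSeq), with no scaling. Tool versions, annotation release and strand setting are not given in the sources used here.

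Symbols and exons came from GENCODE M21. The 260 unmatched identifiers held 0.00287% of counts. CPM was the count divided by the library total in M. A library with 0 counts allows up to 3, or 0.0883 to 0.275 CPM. No pair of libraries was identical. Group, batch and replicate came from the labels, which do not say more of how embryos relate, so p-values measure the spread between these samples.

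Genotypes were compared within dorsal and within ventral libraries by edgeR 4.0.16 (quasi-likelihood, legacy, robust, TMM, two-sided, R 4.3.3) with batch as a term, on genes over 10 counts in 3 or more of the 27 libraries. The 25 members all passed this filter, which the axon controls alone can satisfy. Calls needed a Benjamini-Hochberg adjusted p under 0.05 over all genes and an absolute log2 fold change over 0.58. Standard errors were derived from the F statistic and are approximate. DESeq2 1.42.0, RLE scaling, no filter, no batch term, a replicate block, newer edgeR, batch B alone and leaving out each library were alternatives. Other limits for choosing the genes were also tried. On simulated data with 200 of 16145 genes changed in the dorsal design, edgeR called 13 at 4-fold and 59 at 16-fold, with 7 and 5 unchanged genes. The changed genes were drawn only from those above a minimum mean level. These rates need not hold for the members, which had 0 counts in 39% of their dorsal control values. In the ventral design (16139 genes) it called 35 and 76, with 10 and 6. DESeq2 called 50 and 149 dorsally with 484 and 593 unchanged genes, and 55 and 149 ventrally with 391 and 480.

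Named genes are the members, Smarcc1, genes just outside the limits, the 5 most alike in profile, and relatives listed by name. Slc30a6, the pyruvate dehydrogenase subunits and Arhgap31 are named as well, after their values were seen. The members and lists were chosen with earlier results of these data known. Same-numbered control and mutant libraries are different embryos, and their deviations correlated between -0.0516 and 0.0236, so replicate numbers did not pair samples. Of the members, 1 is counted among the 25 but is not reported here by name.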

Additional observations from a re-analysis of the deposited data

Results flagged for a closer look

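For the CPM of the 6 genes with fold changes, the number of the 25 genes counted, the number of all genes counted and the total count, 47 groups of 4 or 5 libraries were examined, and 4 held a library far from the rest, by the gap to its nearest neighbour as a share of the group's range. The cutoffs mark about 1 in 20 groups when values are normally distributed. The CPM values here are uneven and some are 0, so the share that chance would mark is not known. In ventral mutants, Cep72 stood at 58.7 CPM in mutant 5 and at 0 to 6.41 CPM in the others (share 0.891). Pdk2 stood at 103 CPM in ventral mutant 3 and at 13.4 to 30.1 CPM in the others (0.813). Among ventral controls, Mgat5 was at 111 CPM in control 2 and at 15.4 to 19.9 CPM in the others (0.953). Among dorsal controls, Ptcd2 was at 77.0 CPM in control 4 and at 0 to 9.56 CPM in the others (0.876). All 4 were single high libraries in groups that took no part in choosing the genes, and the causes were not tested.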

How the results depend on the processing

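The number of genes found by the axon limits was 33 to 94 when each axon library was left out (94 without control 1, 75 without control 3), 37 and 23 with control minimums of 5 and 20 counts, 18, 20 and 26 with mutant maximums of 0, 1 and 5, and 25 with CPM limits. None of the 25 was called by edgeR in the dorsal or ventral pieces under any alternative run, and DESeq2 called 2 in the dorsal pieces. Of 192 alternative values of the 12 fold changes (6 genes, dorsal and ventral), 167 kept their direction, 25 turned and 0 passed the threshold, with a smallest adjusted p of 0.679. With a replicate block, the dorsal log2 fold changes of Gys1 and Pdk2 were -0.35 and 1.33 and the ventral one of Pdk2 was 0.20, and the dorsal one of Ptcd2 was 5.99. The block changed no call of a member. Replicate numbers do not pair these embryos. Newer edgeR gave Cep72 -0.059 dorsally and 0.43 ventrally. Batch B alone gave -0.10 (Mgat5), 0.25 (Pdk2) and -0.34 (Rilpl2) dorsally and 0.61 (Cep72) ventrally, and no batch term gave Pdk2 0.19 ventrally. Leaving out each library gave dorsal ranges of -0.35 to 1.09 (Cep72), -0.29 to 0.45 (Gys1), -0.085 to 1.45 (Mgat5), -0.74 to 0.78 (Pdk2), 0.59 to 5.98 (Ptcd2) and -0.32 to 2.87 (Rilpl2), and ventral ranges of -3.97 to 0.58 (Cep72), -2.25 to -0.83 (Gys1), -2.05 to -0.38 (Mgat5), -0.94 to 0.16 (Pdk2), 0.23 to 0.82 (Ptcd2) and -0.31 to 0.44 (Rilpl2). The cause of these reversals was not tested. A dorsal or ventral change of the size simulated would often have been missed at this spread and number of libraries.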
